A study of Homo sapiens with 24 samples.

Results

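Transcript levels at 120 min of EGF were compared with those at 60 min in MCF10A, a non-tumorigenic epithelial cell line from human breast. The comparison took 12 of the 24 arrays of the series: the 6 titled with the 120 min time point against the 6 titled with the 60 min time point, with the transfection as a blocking factor. At each of these times 2 arrays came from cells given a non-targeting control oligonucleotide (control), 2 from cells given an oligonucleotide directed at hsa-miR-20a (si-miR-20a) and 2 from cells given one directed at hsa-miR-671-5p (si-miR-671). All groups were transfected with Oligofectamine and stimulated with EGF, and the growth medium named in the labels also held EGF, insulin, hydrocortisone, cholera toxin and horse serum. The stimulating dose, any starvation before it and whether the replicates, called biological in the labels, came from separate cultures or days are not stated in the sources used here, so p-values measure the spread between these arrays. The groups include no unstimulated cells at 60 or 120 min, so a change caused by EGF and a change caused by time or handling cannot be told apart. The other 12 arrays, at 0 and 30 min, served to name the genes that rose first.

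EGF binds its receptor EGFR, which activates the RAS-ERK cascade and, through it, transcription factors already present in the cell. Immediate early genes respond without new protein synthesis; many encode transcription factors such as FOS and EGR1, and their transcripts are short-lived. Delayed early genes follow and include phosphatases, mRNA decay factors and adaptor proteins that end the signal, and later genes encode ligands, matrix proteins and adhesion molecules.

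Levels are the authors' deposited log2 values, 1 per probe set, so a difference of 1 is a doubling on the array. Differences are given as 120 min minus 60 min with the standard error of the limma model, n = 6 arrays per time, and a gene is said to have risen or fallen where its Benjamini-Hochberg adjusted p over 19460 probe sets was under 0.05. Across probe sets, the 2 replicates of a group correlated with r between 0.973 and 0.992. The SD between replicates ran from 0.163 to 0.305 and was widest for si-miR-671 at 120 min, whose replicate 2 stood apart; without it 294 probe sets rose and 265 fell in the comparison below. Of the basal epithelial markers, 6 were measured, with mean levels from 9.98 (EGFR) to 12.7 (KRT5). The blood and endothelial marker PTPRC had a mean level of 4.35, while CDH5 in the same list stood at 10.3. The mean over the 6 basal markers ran from 11.1 to 11.2 on the 60 min arrays and from 11.1 to 11.3 on the 120 min arrays. In these bulk samples fewer cells of a type and less RNA per cell cannot be told apart.

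Between 60 and 120 min, 491 of 19460 probe sets changed (2.52%): 294 rose (1.51%) and 197 fell (1.01%). The falls were the larger changes. The median size of a call was 0.44 for rises and -0.53 for falls, 32 genes fell by at least 1 on the log2 scale against 15 that rose by as much, and all 4 genes that changed by at least 2, FOS, EGR1, HES1 and DUSP1, fell. With a 1.5-fold change required as well, 75 probe sets rose (0.385%) and 87 fell (0.447%), which stand for 73 and 83 genes. All of these genes changed in the same direction in each of the 3 transfections, against 5425 of the 18417 genes tested. They were called on the same arrays, so the selection itself favours such agreement and it is no separate support. The counts depended on the arrays and on the fit. Without control 60 min replicate 2, 186 rose and 130 fell, and without control 60 min replicate 1, 192 rose. Without the 4 arrays of a transfection, 45 rose and 55 fell for control, 106 and 100 for si-miR-20a and 128 and 138 for si-miR-671. In the fit over all 24 arrays 509 rose and 448 fell, and with a replicate block within transfection 158 and 122. Of the 111 named genes that were called, none changed direction in these settings, but 50 lost their call without the control arrays, 37 without the si-miR-20a arrays and 27 without the si-miR-671 arrays. Values against 0 min are given beside single genes; in those comparisons 0.581% of probe sets were called higher and 0.0308% lower at 30 min, 1.87% and 0.283% at 60 min, and 4.40% and 2.55% at 120 min. Near the threshold, SYNGR1 was called with an adjusted p of 0.0483 and ZNF574 was not, with 0.0504.

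The early genes were those called at least 2-fold higher at 30 than at 0 min on the 12 other arrays, where 32 of 19460 probe sets (0.164%) met this rule, for 30 genes. From 60 to 120 min 24 of the 30 (80%) fell, 1 rose (FOSL1) and 5 did not pass the test (NR4A1, NR4A2, TRIB1, SPRR2A and SPRR2D), with a median difference of -0.86 against 0.0014 over all 18417 genes. In 20 of the 30 all 6 arrays at 120 min lay below all 6 at 60 min, which was so for 0.735% of all probe sets. Read from the other side, 36 of the 83 genes that fell at least 1.5-fold (43.4%) were among the 102 genes that had risen at 30 min, which is 35.3% of those 102. Of the 73 genes that rose at least 1.5-fold, 1 (1.37%) was among them, IL24. The 102 genes were drawn from 18417 tested, and 0.581% of all probe sets had been called higher at 30 min. A count of 1 therefore does not set the rises apart from all genes.

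FOS, a subunit of the AP-1 transcription factor, fell the furthest. Its level was 9.76 to 10.31 (median 10.05) at 60 min and 7.47 to 7.83 (median 7.58) at 120 min. The groups did not overlap, and FOS fell by 2.45 ± 0.11 (5.47-fold, adjusted p = 1.31e-06); it had already passed its highest mean at 30 min, when it stood 3.98 above 0 min. At 120 min FOS was still 0.69 ± 0.12 above its 0 min level (adjusted p = 0.00358). EGR1, a zinc finger transcription factor, had its highest mean at 60 min, with arrays at 11.28 to 11.44 (median 11.34), and then lay at 8.48 to 9.22 (median 9.0), a fall of 2.44 ± 0.11 (5.42-fold, adjusted p = 1.31e-06). If each fall had been even over the hour, FOS would have halved every 24.5 min and EGR1 every 24.6 min, whereas JUN, another AP-1 subunit, would have taken 65.3 min.

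The promoter of EGR1 holds CArG boxes, the element through which serum response factor acts. Of 26 promoter windows of early genes that were searched, this was the 1 with a CArG box, so it does not stand for the early genes. In the 150 bases before its start, from RefSeq on GRCh38.p14, chr5:138465329-138465478 on the plus strand, 2 CArG boxes are in capitals, and the transcript starts just after the last base.
EGR1: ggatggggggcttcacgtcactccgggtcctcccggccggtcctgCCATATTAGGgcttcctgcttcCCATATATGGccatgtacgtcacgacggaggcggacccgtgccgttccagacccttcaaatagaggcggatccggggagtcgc

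The AP-1 subunits did not fall together. Of 10 measured, 5 fell (FOS, ATF3, FOSB, JUN and JUNB), FOSL1 rose and 4 did not pass the test. ATF3, a stress-induced member, moved from a median of 7.71 (range 7.40 to 7.99) to 6.22 (range 5.72 to 6.46) without overlap and fell by 1.60 ± 0.09 (adjusted p = 3.45e-06). FOSB had been the gene with the steepest start, 5.64 above 0 min at 30 min. Its level went from a median of 9.10 (range 8.95 to 9.22) to 8.08 (range 7.90 to 8.38), a fall of 0.99 ± 0.07 (adjusted p = 2.64e-05), and at 120 min it was still 4.74 ± 0.22 above 0 min. JUN fell by 0.92 ± 0.07 and JUNB by 0.71 ± 0.10 (adjusted p = 2.72e-05 and 0.0031), both without overlap. FOSL1, the FOS family member linked to late and sustained ERK signalling, went the other way: its arrays rose from a median of 7.66 (range 7.56 to 7.82) to 8.12 (range 8.07 to 8.38) without overlap, by 0.48 ± 0.07 (adjusted p = 0.00536). The calls on FOSL1 and JUNB were lost without the control arrays, and that on FOSL1 also without the si-miR-20a arrays. FOSL2 differed by -0.18 ± 0.07 (adjusted p = 0.286).

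**Figure D1:**
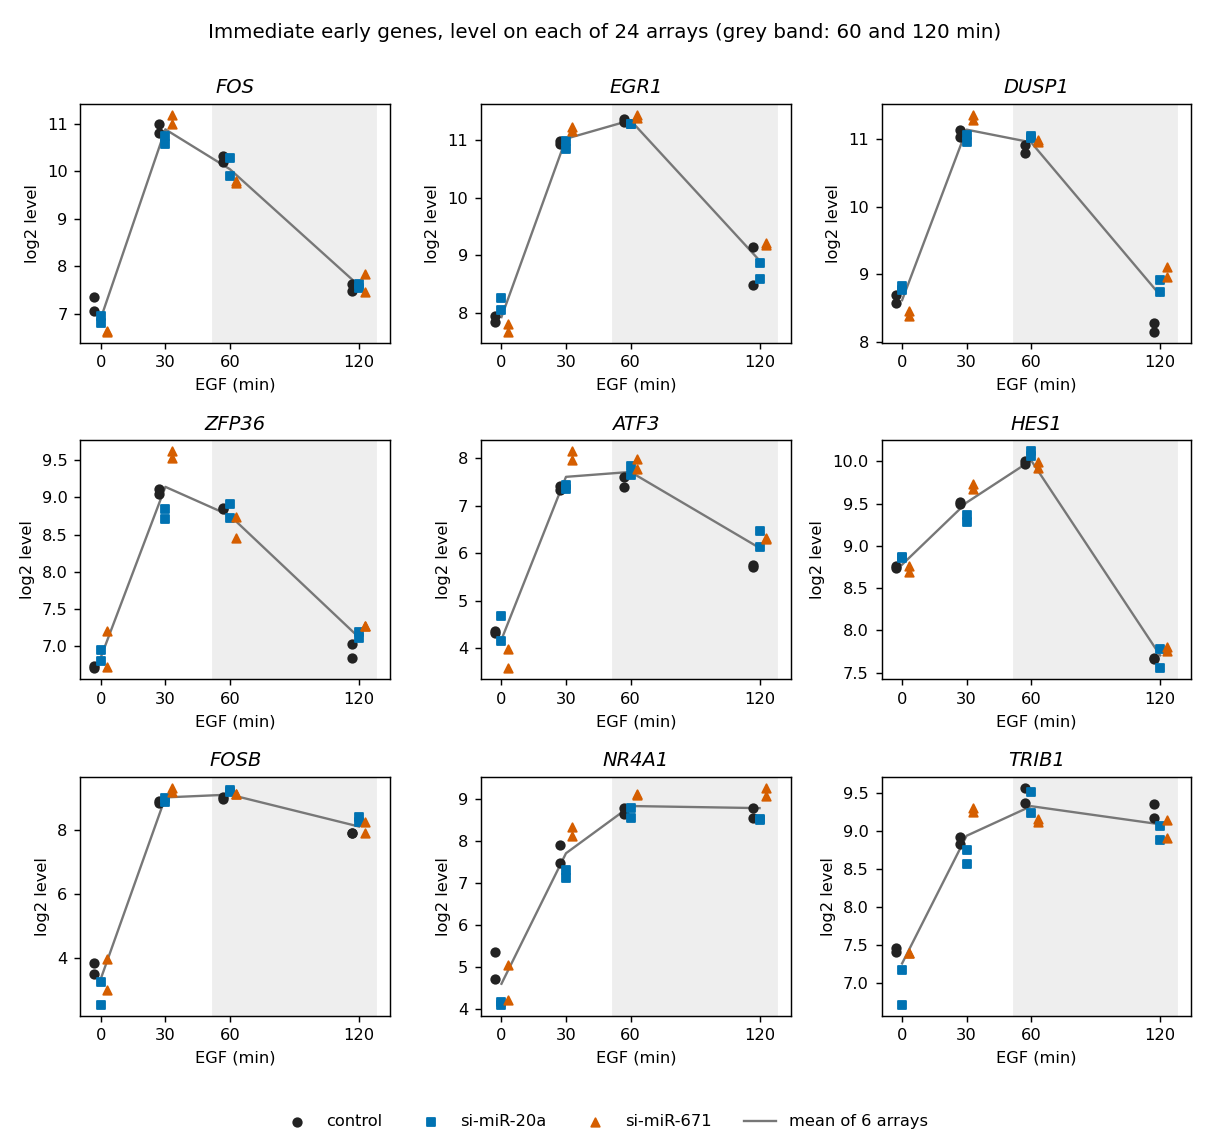
Level (deposited log2 value, vertical axis) against minutes of EGF for 9 genes, 1 marker per array by transfection and a line through the means of the 6 arrays at each time, with 60 and 120 min shaded. FOS, EGR1, DUSP1, ZFP36, ATF3 and HES1 drop steeply across the shaded part, FOSB drops by 0.99, and NR4A1 and TRIB1 stay within overlapping ranges.

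No member of the 3 NR4A orphan nuclear receptors passed the test in the fit used here, though NR4A2 and NR4A3 did under other settings. NR4A1 lay at 8.56 to 9.12 (median 8.80) at 60 min and 8.50 to 9.28 (median 8.67) at 120 min. The ranges overlapped, the difference was -0.05 ± 0.08 (adjusted p = 0.842), and NR4A1 was 4.20 ± 0.19 above 0 min at the end of the course. NR4A2 differed by -0.48 ± 0.14 (adjusted p = 0.122), and was called lower with 1 mean per group over the 12 arrays, without the si-miR-20a arrays (adjusted p = 0.0127) and without si-miR-20a 120 min replicate 2. NR4A3 differed by 0.54 ± 0.13 (adjusted p = 0.0535), with 5 of its 6 arrays at 120 min above the highest at 60 min. It was called higher with 1 mean per group over the 12 arrays and without control 60 min replicate 1, control 120 min replicate 2 (adjusted p = 0.029) or si-miR-671 60 min replicate 1. TRIB1, a pseudokinase that steers protein degradation, differed by -0.24 ± 0.08 (adjusted p = 0.237) and overlapped as well. The cornified envelope genes SPRR2A and SPRR2D, which belong to a family of near-identical copies and are uncertain as separate readings, differed by -9.7e-05 ± 0.15 and 0.19 ± 0.14 (adjusted p = 1 and 0.659).

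Among the EGR factors and their NAB corepressors, 2 of 5 measured fell, EGR1 and EGR3. EGR3 went from a median of 9.41 (range 9.24 to 9.48) to 8.58 (range 7.20 to 8.98), without overlap but with a wide spread at 120 min, and fell by 1.11 ± 0.21 (adjusted p = 0.0199). That call was lost without control 60 min replicate 2 (adjusted p = 0.0601) or without control 120 min replicate 2 (adjusted p = 0.0566). NAB2, a corepressor of EGR proteins, differed by 0.39 ± 0.11 (adjusted p = 0.121). Of 7 KLF factors, KLF6 fell by 0.74 ± 0.06 (adjusted p = 1.01e-04) and KLF5 rose by 0.35 ± 0.07 (adjusted p = 0.0148). The call on EGR3 was also lost without the si-miR-20a arrays. The call on KLF5 was lost without control 60 min replicate 1 or replicate 2 (adjusted p up to 0.0528). It was also lost without the arrays of any 1 transfection (adjusted p = 0.24 without the control arrays).

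Of 25 other immediate early genes 14 fell, none rose and 11 did not pass the test, with a median of -0.53. HES1, a transcriptional repressor best known from the Notch pathway, had the smallest error of the large falls: 9.92 to 10.12 (median 10.00) at 60 min against 7.55 to 7.80 (median 7.72) at 120 min. It fell by 2.31 ± 0.06 (4.95-fold, adjusted p = 2.21e-08) and ended at -1.07 ± 0.07 against 0 min (adjusted p = 1.38e-06), although it had been 1.23 ± 0.04 above it at 60 min. PTGS2, the inducible cyclooxygenase, moved from a median of 9.80 (range 9.63 to 9.87) to 8.59 (range 8.15 to 8.95), a fall of 1.24 ± 0.12 (adjusted p = 1.89e-04) that left it 2.61 ± 0.20 above 0 min. IER2, a short immediate early nuclear protein, fell by 1.22 ± 0.06 (adjusted p = 3.14e-06) without overlap. The matricellular proteins CCN1 and CCN2, known as targets of YAP and SRF, fell by 0.80 ± 0.06 and 0.74 ± 0.07 (adjusted p = 4.73e-05 and 1.92e-04) and stood 1.08 and 2.33 above 0 min. ID3, an inhibitor of helix-loop-helix factors that had not passed the test at 30 min (0.05 ± 0.10, adjusted p = 0.98), fell by 0.95 ± 0.15 (adjusted p = 0.00564), with 5 of 6 arrays at 120 min below the lowest at 60 min, a call lost without the control arrays. MYC, MCL1 and SRF differed by 0.21 ± 0.06, 0.03 ± 0.05 and 0.10 ± 0.07, with adjusted p of 0.163, 0.84 and 0.637.

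Other early genes fell by less than 1. PTGER4, a receptor of prostaglandin E2 whose synthesis needs PTGS2, moved from a median of 8.07 (range 8.0 to 8.34) to 7.12 (range 6.82 to 7.73) without overlap and fell by 0.92 ± 0.12 (adjusted p = 0.00234). The probe set of PTGER4P2-CDK2AP2P2, a pseudogene copy that may read the same transcript and is uncertain, fell by 0.68 ± 0.15 (adjusted p = 0.0406), a call lost when any 1 of 9 arrays was left out (adjusted p up to 0.114). EDN1, the vasoactive peptide endothelin-1, fell by 0.96 ± 0.09 (adjusted p = 1.44e-04), and at 120 min it differed from 0 min by 0.43 ± 0.14 (adjusted p = 0.0968). Its neighbour on chromosome 6, the zinc finger gene HIVEP1, rose by 0.63 ± 0.06 (adjusted p = 1.76e-04). GADD45B, a stress sensor that binds MAP kinase kinases, fell by 0.53 ± 0.08, and PPP1R3B, a glycogen-targeting subunit of protein phosphatase 1, by 0.42 ± 0.07 (adjusted p = 0.00355 and 0.00668). The calls on PTGER4, GADD45B and PPP1R3B were lost without the control arrays. Those on PTGER4 and PPP1R3B were also lost without the si-miR-20a arrays, and that on GADD45B without the si-miR-671 arrays. The nuclear protein CSRNP1 fell by 0.35 ± 0.08 (adjusted p = 0.0449), with overlapping arrays, a call lost when any 1 of 11 arrays was left out (adjusted p up to 0.13).

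Immediate early genes with a smaller start also fell, some of them to a level that was not called different from 0 min. BHLHE40, a repressor that feeds into the clock, fell by 0.91 ± 0.13 (adjusted p = 0.00334), a call lost without the control arrays or the si-miR-20a arrays. PPP1R15A (GADD34), which directs dephosphorylation of the initiation factor eIF2, fell by 0.77 ± 0.07, the polo-like kinase PLK2 by 0.76 ± 0.06 and the kinase SGK1 by 0.76 ± 0.07 (adjusted p = 1.60e-04, 7.42e-05 and 1.76e-04). At 120 min PLK2 and SGK1 differed from 0 min by -0.11 ± 0.07 and 0.03 ± 0.10 (adjusted p = 0.47 and 0.924), while PPP1R15A was still 0.50 ± 0.10 above it. NUAK2, an AMPK-related kinase, went further: it had gained 0.61 ± 0.08 by 60 min, fell by 1.22 ± 0.08 (adjusted p = 9.56e-06) and ended at -0.60 ± 0.08 against 0 min (adjusted p = 6.73e-04). IER5, by contrast, differed by 0.28 ± 0.07 and did not pass the test (adjusted p = 0.0717).

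**Figure D2:**
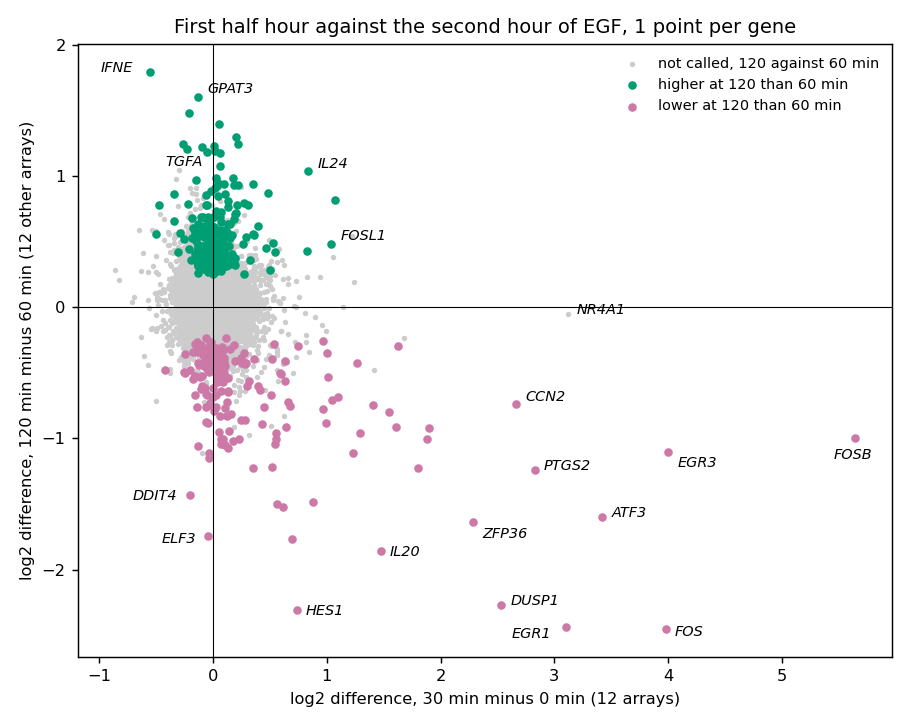
Difference from 60 to 120 min (vertical axis, log2) against the difference from 0 to 30 min measured on the 12 other arrays (horizontal axis, log2), 1 point per gene, coloured by the call at 120 against 60 min. Most genes far to the right lie below 0, NR4A1 lies on the line at 0, FOSL1 and IL24 lie above it, and most rises and the falls of ELF3 and DDIT4 stand near 0 on the horizontal axis.

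Several falls were of genes that themselves end the response. DUSP1 encodes a phosphatase that inactivates MAP kinases in the nucleus. Its level went from a median of 10.97 (range 10.80 to 11.06) to 8.82 (range 8.14 to 9.10) without overlap, a fall of 2.27 ± 0.11 (4.82-fold, adjusted p = 1.46e-06), and at 120 min it differed from 0 min by 0.07 ± 0.14 (adjusted p = 0.822). ZFP36, which binds AU-rich elements and speeds the decay of short-lived mRNAs, fell by 1.64 ± 0.10 (adjusted p = 7.62e-06), from a median of 8.79 (range 8.46 to 8.92) to 7.15 (range 6.84 to 7.27). ZC3H12A, an RNase that cuts inflammatory mRNAs and had no called rise at 30 min (0.18 ± 0.05, adjusted p = 0.336), fell by 1.02 ± 0.07 (adjusted p = 2.30e-05) to -0.77 ± 0.07 against 0 min.

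Within the MAP kinase phosphatases the direction split by member: of 10 measured, DUSP1, DUSP2 and DUSP5 fell while DUSP6 and DUSP7 rose. DUSP2 fell by 1.11 ± 0.16 and DUSP5 by 1.00 ± 0.09 (adjusted p = 0.00333 and 1.01e-04), both nuclear enzymes of the early group. DUSP6, the cytoplasmic phosphatase of ERK, climbed from a median of 11.06 (range 10.94 to 11.11) to 11.44 (range 11.39 to 11.62) without overlap, by 0.43 ± 0.06 (adjusted p = 0.00198). DUSP7, a close relative of DUSP6, had no called change in the first hour (0.06 ± 0.07 at 60 against 0 min, adjusted p = 0.794). It then rose from a median of 8.64 (range 8.53 to 8.88) to 9.52 (range 9.34 to 9.93), by 0.90 ± 0.09 (1.87-fold, adjusted p = 2.07e-04). The calls on DUSP2 and DUSP6 were lost without the control arrays, and that on DUSP2 also without the si-miR-671 arrays. DUSP4 and DUSP10 differed by 0.17 ± 0.06 and 0.13 ± 0.07 (adjusted p = 0.237 and 0.519).

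DUSP1 carries a cyclic AMP response element in its promoter, shown because CREB-type factors are among those that ERK activates. It too was the 1 match among the 26 windows of early genes. The 150 bases before its start, chr5:172771196-172771345 on the minus strand of GRCh38.p14, have the full palindrome in capitals.
DUSP1: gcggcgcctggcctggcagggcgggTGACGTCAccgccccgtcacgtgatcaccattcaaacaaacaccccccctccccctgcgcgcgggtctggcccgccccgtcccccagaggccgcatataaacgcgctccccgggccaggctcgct

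Of 13 measured inhibitors that act on receptors or between RAS and ERK, 3 rose and 2 fell. SPRY4, a Sprouty protein that blocks RAS-ERK signalling, rose from a median of 7.73 (range 7.40 to 7.94) to 8.48 (range 8.44 to 8.59) without overlap, by 0.78 ± 0.08 (adjusted p = 3.46e-04). The related SPRED2 and SPRED1 rose by 0.69 ± 0.08 and 0.37 ± 0.06 (adjusted p = 4.89e-04 and 0.00963), also without overlap. The call on SPRED2 was lost without the control arrays, and that on SPRED1 without the arrays of any 1 transfection. SPRY2 fell by 0.35 ± 0.07 (adjusted p = 0.022), a call lost when any 1 of 6 of the 12 arrays was left out (adjusted p up to 0.0758). SOCS3, which inhibits cytokine receptors, fell by 1.00 ± 0.11 (adjusted p = 3.46e-04) from a median of 5.91 (range 5.76 to 6.39) to 4.89 (range 4.79 to 5.49). ERRFI1, a direct inhibitor of EGFR, differed by -0.05 ± 0.12 (adjusted p = 0.911). Of 7 mRNA decay factors 3 fell (ZFP36, ZC3H12A and TOB1) and 2 rose (ZFP36L2 and TOB2). ZFP36L2, a paralogue of ZFP36, rose by 0.67 ± 0.06 (adjusted p = 1.18e-04) without overlap. The calls on TOB1 and TOB2 were lost when any 1 of 8 and 9 arrays was left out (adjusted p up to 0.085 and 0.107).

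Among inflammatory genes more fell than rose in this hour, while against 0 min the cytokines stood on both sides. Of 14 measured cytokines, chemokines and ICAM1, 7 fell, 1 rose (IL24) and 6 did not pass the test, with a median of -0.29. At 120 min 5 of the 14 were called higher than at 0 min and 5 lower. Of 12 subunits, inhibitors and targets of NF-kappaB, the transcription factor of inflammatory signalling, 4 fell (NFKBIZ, TNFAIP3, NFKBIA and REL) and none rose, and at 120 min 1 of the 12 was called higher than at 0 min and 4 lower.

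NFKBIZ, a nuclear cofactor of NF-kappaB that permits IL6 transcription, lay at 8.83 to 9.50 (median 9.02) at 60 min and 7.10 to 7.89 (median 7.24) at 120 min. It fell by 1.77 ± 0.08 (3.4-fold, adjusted p = 1.31e-06) after a rise of 0.69 ± 0.06 at 30 min, and ended at -1.38 ± 0.08 against 0 min (adjusted p = 6.04e-07). TNFAIP3, the ubiquitin-editing enzyme A20, followed the same course: up by 0.56 ± 0.04 at 30 min, then from a median of 10.05 (range 9.93 to 10.13) to 8.54 (range 8.26 to 8.80), a fall of 1.5 ± 0.08 (adjusted p = 4.23e-06), to -0.97 ± 0.12 against 0 min. NFKBIA, the inhibitor that holds NF-kappaB in the cytoplasm, had no called rise at 30 min (0.07 ± 0.07, adjusted p = 0.955). It was already -0.54 ± 0.10 against 0 min at 60 min (adjusted p = 0.0126) and fell by a further 1.00 ± 0.12 (adjusted p = 9.65e-04). REL fell by 0.57 ± 0.07 (adjusted p = 8.98e-04). The calls on NFKBIA and REL were lost without the control arrays. Of the other subunits, NFKB1 and RELA differed by 0.16 ± 0.06 and 0.19 ± 0.09 (adjusted p = 0.279 and 0.393).

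IL6, the cytokine, was spread widely between transfections at both times, 6.16 to 7.47 (median 6.58) at 60 min and 4.38 to 6.0 (median 5.26) at 120 min. The arrays still did not overlap. IL6 differed by -1.47 in control, -1.32 with si-miR-20a and -1.65 with si-miR-671, and over all arrays it fell by 1.48 ± 0.08 (2.79-fold, adjusted p = 3.45e-06) to -0.74 ± 0.13 against 0 min. The neutrophil chemokines CXCL2 and CXCL8 fell by 1.52 ± 0.14 and 1.04 ± 0.15 (adjusted p = 1.77e-04 and 0.0031), without overlap, and the call on CXCL8 was lost without the control arrays. CXCL3 fell by 1.23 ± 0.09 and CXCL1 by 0.62 ± 0.06 (adjusted p = 2.72e-05 and 3.39e-04). CXCL1, CXCL2 and CXCL3 are similar copies of one another, so their separate readings are uncertain. For CXCL1, 4 of 6 arrays at 120 min lay below the lowest at 60 min. CCL2, a monocyte chemokine named outside the rule after its values were seen, fell by 1.01 ± 0.10 (adjusted p = 2.44e-04), with 4 of 6 arrays below the lowest at 60 min. IRF1, an interferon-responsive transcription factor, fell by 1.05 ± 0.14 (adjusted p = 0.00159) and had no called change over the first hour (-0.11 ± 0.08, adjusted p = 0.626), and its call was lost without the control arrays or the si-miR-20a arrays. The falls of IL1A and LIF were small, -0.40 ± 0.08 and -0.29 ± 0.06 (adjusted p = 0.0231 and 0.0396), and were lost when any 1 of 7 and 9 arrays was left out (adjusted p up to 0.0736 and 0.126).

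The interleukins IL20 and IL24, neighbours on chromosome 1 and members of the IL10 family that signal to epithelial cells, parted in this hour. IL20 had risen by 1.47 ± 0.18 at 30 min, stood at 6.56 to 7.23 (median 6.90) at 60 min and dropped to 4.0 to 5.52 (median 5.19), a fall of 1.86 ± 0.17 (3.62-fold, adjusted p = 1.25e-04). IL24 was at 7.10 to 8.01 (median 7.55) at 60 min and 8.21 to 9.18 (median 8.59) at 120 min, all 6 arrays above, and rose by 1.03 ± 0.13 (2.05-fold, adjusted p = 0.00159), to 3.34 ± 0.18 above 0 min. Without the control arrays the call on IL24 was lost (adjusted p = 0.0735). Among the genes that changed at least 1.5-fold, 5 pairs were neighbours in the annotation, of which 3 moved in the same direction and 2 in opposite directions, IL20 with IL24 and EDN1 with HIVEP1.

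**Figure D3:**
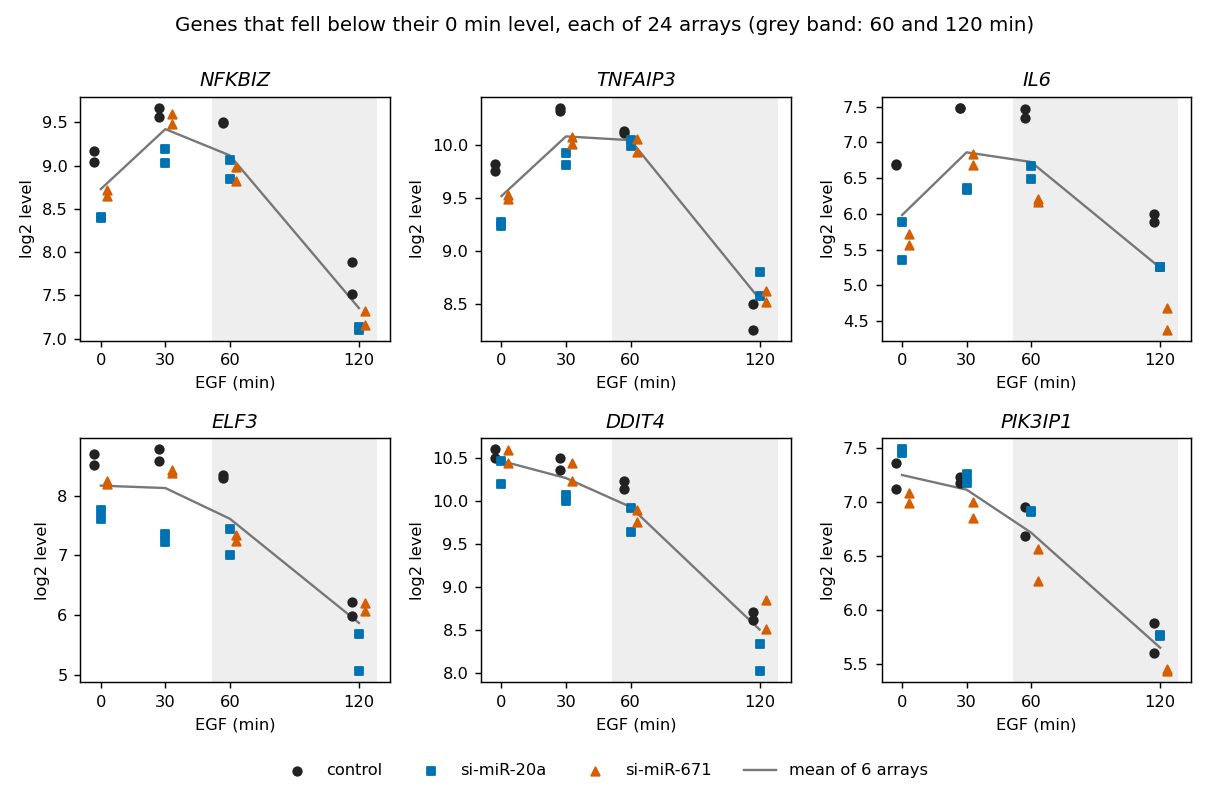
Level (deposited log2 value, vertical axis) against minutes of EGF for 6 genes that ended below their 0 min level, 1 marker per array by transfection and a line through the means of 6 arrays. NFKBIZ, TNFAIP3 and IL6 rise by 30 min and then drop, while ELF3, DDIT4 and PIK3IP1 decline without a rise.

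The NF-kappaB consensus of 10 letters was searched on both strands of RefSeq promoter windows (GRCh38.p14), each 250 bases before to 50 after a start. Of the 83 genes that fell at least 1.5-fold, 71 (85.5%) had a window, 105 windows in all. The consensus stood in 18.1% of these windows, against 8.69% of the 20109 windows of all genes tested and 7.73% of all 35116 windows in the table. The 19 windows with a match include those of the similar copies CXCL1, CXCL2 and CXCL3, so they are not all separate observations. The letters TATAAA stood in 25.7%, against 9.06% for the genes tested and 11.5% in the table. Other motifs were closer to the table's share: the CArG box was in 1.90% against 1.29%, and the AP-1 site TGANTCA with C or G at N in 3.81% against 4.95%. The cyclic AMP response element was in 2.86% against 1.85% and the E box CACGTG, which can overlap the others, in 6.67% against 7.26%. In the windows of all genes tested these 4 shares were 1.25%, 3.98%, 2.33% and 8.32%. These shares are descriptions without a test, and a match does not show that a factor binds. Of the 73 genes that rose 75.3% had a window and of the 30 early genes 66.7%, against 77.3% of all genes tested. In the 101 windows of the rises the AP-1 site stood in 9.90%, the NF-kappaB consensus in 9.90% and TATAAA in 14.9%. The CArG box and the cyclic AMP response element stood in 2.97% each and the E box in 4.95%. These too are descriptions without a test, and genes without a window were not searched. The early genes had only 26 windows, and apart from the single matches of EGR1 and DUSP1 their counts are not given.

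The stretches below are shown because they belong to genes that fell together and carry the NF-kappaB consensus close to the start. Each is the 150 bases before a start on GRCh38.p14, read in the direction of the gene, with the matches in capitals on either strand. The positions are chr6:137867109-137867258 (plus strand) for TNFAIP3, chr14:35404750-35404899 (minus) for NFKBIA, chr7:22727050-22727199 (plus) for IL6, chr4:73869243-73869392 (plus) for CXCL1, chr4:74099196-74099345 (minus) for CXCL2 and chr4:74038690-74038839 (minus) for CXCL3.
TNFAIP3: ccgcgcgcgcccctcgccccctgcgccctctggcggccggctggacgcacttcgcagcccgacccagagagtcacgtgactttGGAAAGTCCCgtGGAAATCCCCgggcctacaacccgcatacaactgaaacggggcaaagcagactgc
NFKBIA: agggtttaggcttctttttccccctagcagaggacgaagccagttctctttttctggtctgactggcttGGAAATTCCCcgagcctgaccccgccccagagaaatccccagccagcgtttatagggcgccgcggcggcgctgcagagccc
IL6: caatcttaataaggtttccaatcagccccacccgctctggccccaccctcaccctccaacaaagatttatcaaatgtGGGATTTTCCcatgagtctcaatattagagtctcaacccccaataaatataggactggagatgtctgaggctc
CXCL1: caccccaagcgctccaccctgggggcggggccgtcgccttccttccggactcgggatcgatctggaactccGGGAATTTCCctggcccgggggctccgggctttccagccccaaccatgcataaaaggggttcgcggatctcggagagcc
CXCL2: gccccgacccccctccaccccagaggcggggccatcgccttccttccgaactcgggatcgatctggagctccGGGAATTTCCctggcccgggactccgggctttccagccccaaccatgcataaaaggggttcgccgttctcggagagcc
CXCL3: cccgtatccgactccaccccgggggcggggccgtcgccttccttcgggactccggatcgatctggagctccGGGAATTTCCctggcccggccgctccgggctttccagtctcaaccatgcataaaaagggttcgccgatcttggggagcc
The match began 79 bases before the start in CXCL1 and CXCL3 and 78 in CXCL2, and TNFAIP3 held 2 matches, 67 and 55 bases before.

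Further falls had no called rise at 30 min. ELF3, an ETS factor of epithelial cells, lay at 7.0 to 8.35 (median 7.39) at 60 min and 5.06 to 6.21 (median 6.03) at 120 min without overlap. It fell by 1.74 ± 0.17 (3.35-fold, adjusted p = 2.62e-04) and ended at -2.30 ± 0.11 against 0 min, after a smaller step of -0.55 ± 0.11 by 60 min (adjusted p = 0.0314). EFNA1, an ephrin ligand, fell by 1.15 ± 0.11 (adjusted p = 1.61e-04) to -1.51 ± 0.10 against 0 min. Of 12 ETS factors, ephrins and EPHA2, these were the 2 that fell, and ETV4 rose by 0.42 ± 0.09 (adjusted p = 0.0418), a call lost when any 1 of 10 arrays was left out (adjusted p up to 0.119).

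Of 24 genes that restrain growth or PI3K signalling, 9 fell, none rose and 15 did not pass the test, with a median of -0.18. Over all genes tested 0.994% fell and 1.55% rose. Like the other lists, this one was chosen with earlier results of these data known, so its count is a description and no separate support. DDIT4, an inhibitor of mTORC1, moved from a median of 9.91 (range 9.64 to 10.24) to 8.56 (range 8.02 to 8.84) without overlap. It fell by 1.43 ± 0.10 (2.69-fold, adjusted p = 2.72e-05), to -1.97 ± 0.09 against 0 min. PIK3IP1, a membrane inhibitor of PI3K, fell by 1.06 ± 0.08 (adjusted p = 2.85e-05) and TSC22D3, the glucocorticoid-induced leucine zipper protein, by 1.07 ± 0.08 (adjusted p = 3.64e-05). The transcriptional repressor BCL6 fell by 0.83 ± 0.13, the arrestin-fold protein TXNIP by 0.76 ± 0.12 and the cell cycle inhibitor CDKN1B (p27) by 0.67 ± 0.08, with adjusted p of 0.0072, 0.00693 and 7.77e-04. ARRDC3, SESN1 and KLHL24 fell by 0.63 ± 0.06, 0.60 ± 0.09 and 0.42 ± 0.07 (adjusted p = 2.66e-04, 0.00435 and 0.00545). ARRDC3 alone of these 9 had been called higher at 30 min, by 0.41 ± 0.06 (adjusted p = 0.00877). For TXNIP and SESN1 the arrays of the times overlapped, and the calls on BCL6, TXNIP and SESN1 were lost without the control arrays. Those on BCL6 and SESN1 were also lost without the si-miR-20a arrays, and that on TXNIP without the si-miR-671 arrays. FOXO1, FOXO3 and IRS2 were among those that did not pass the test, FOXO1 with -0.11 ± 0.09 and IRS2 with 0.12 ± 0.09 (adjusted p = 0.656 and 0.647).

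The rises of this hour were led by genes of many kinds, some with no called change in the first hour. GPAT3, an enzyme of triglyceride synthesis, lay at 5.55 to 6.05 (median 5.76) at 60 min, 0.05 ± 0.07 against 0 min (adjusted p = 0.823), and at 7.11 to 7.84 (median 7.29) at 120 min. It rose by 1.60 ± 0.13 (3.04-fold, adjusted p = 6.12e-05) without overlap. TMCC3, a membrane protein of the endoplasmic reticulum, rose by 1.39 ± 0.11, CREB5, a CREB-family transcription factor, by 1.22 ± 0.09, and MICAL2, an enzyme that oxidises actin, by 1.19 ± 0.07 (adjusted p = 5.25e-05, 2.82e-05 and 6.85e-06). CREB5 and MICAL2 had differed by 0.07 ± 0.09 and 0.13 ± 0.05 at 60 against 0 min (adjusted p = 0.818 and 0.251). WNT9A, a secreted WNT ligand, rose by 1.2 ± 0.14, and IL33, an alarmin of the IL1 family, by 1.23 ± 0.15 (adjusted p = 6.15e-04 and 0.00109), and the call on WNT9A was lost without the control arrays. The gap junction gene GJB2 rose by 0.99 ± 0.05, ALDH1A3, which makes retinoic acid, by 0.94 ± 0.10, the Notch glycosyltransferase MFNG by 0.97 ± 0.10 and ZNF365 by 0.98 ± 0.09 (adjusted p = 3.57e-06, 3.40e-04, 3.67e-04 and 1.91e-04). The mean of the probe sets of ALDH1A3 rose by less, 0.44 (adjusted p = 0.0029). The glucose transporter SLC2A3 rose by 0.94 ± 0.08 (adjusted p = 1.32e-04) after 1.19 ± 0.12 by 60 min, and its near-identical copy SLC2A14 read 0.93 ± 0.10, so which of them changed is uncertain. In each of the genes of this paragraph all 6 arrays at 120 min lay above all 6 at 60 min, which was so for 1.24% of all probe sets.

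Among EGF family ligands the direction differed by member. Of 6 measured, NRG1, TGFA and EREG rose and HBEGF fell. TGFA, which binds EGFR as EGF does, was at 8.55 to 8.74 (median 8.60) at 60 min and 9.60 to 9.84 (median 9.67) at 120 min. It rose by 1.07 ± 0.06 (2.11-fold, adjusted p = 3.45e-06), against 0.40 ± 0.06 over the whole first hour. NRG1, the ligand of ERBB3 and ERBB4, had a wide spread of levels, 6.79 to 8.11 (median 7.89) at 60 min and 8.15 to 9.32 (median 8.92) at 120 min, without overlap, and rose by 1.18 ± 0.09 (adjusted p = 3.41e-05). EREG, a broad ERBB ligand, rose from a median of 9.16 (range 8.89 to 9.54) to 10.04 (range 9.88 to 10.20), by 0.87 ± 0.09 (adjusted p = 3.20e-04), on top of 1.04 ± 0.09 gained by 60 min. HBEGF, the ligand of the early phase, had gained 1.62 ± 0.10 by 60 min and then fell by 0.26 ± 0.05 (adjusted p = 0.0306), with overlapping arrays, a call lost when any 1 of 10 arrays was left out (adjusted p up to 0.101). EPGN and BTC differed by 0.09 ± 0.13 and 0.03 ± 0.12 (adjusted p = 0.829 and 0.942). None of the 4 ERBB receptors passed the test, and EGFR differed by -0.05 ± 0.07 (adjusted p = 0.808).

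**Figure D4:**
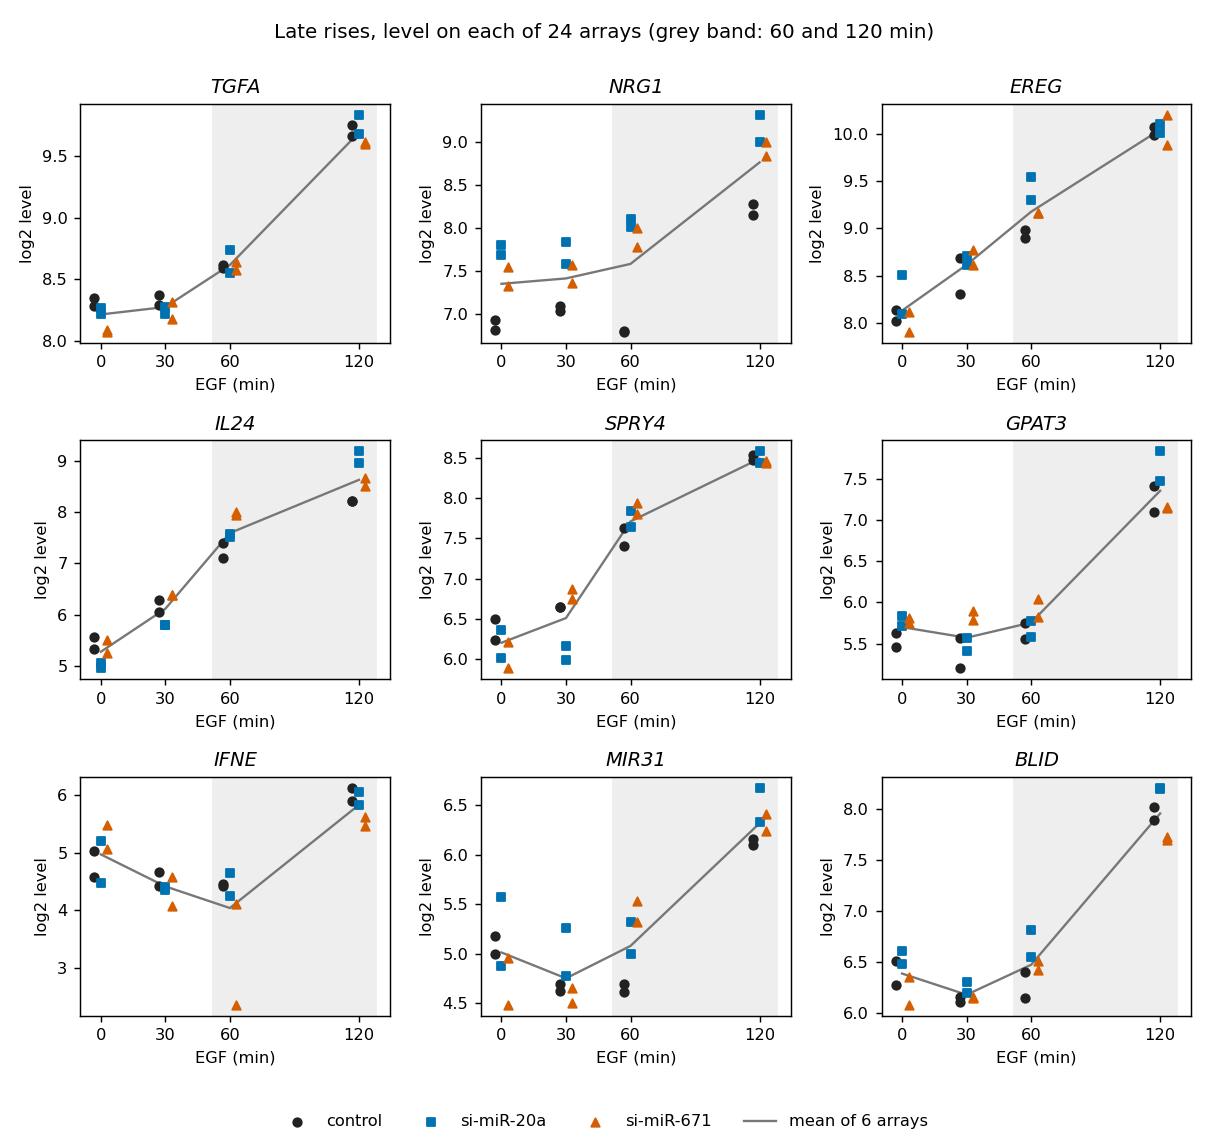
Level (deposited log2 value, vertical axis) against minutes of EGF for 9 genes that rose between 60 and 120 min, 1 marker per array by transfection and a line through the means of 6 arrays. In these means GPAT3, MIR31 and BLID stay near their 0 min level until 60 min, and EREG, IL24 and SPRY4 climb throughout. From 0 to 60 min the MIR31 arrays moved from 4.48 and 4.96 to 5.53 and 5.32 with si-miR-671. In control they moved from 5.18 and 4.99 to 4.61 and 4.69. For IFNE 1 si-miR-671 array stands apart at 2.36 at 60 min.

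Among 22 genes of invasion, adhesion and matrix 5 rose, none fell and 17 did not pass the test. SEMA7A, a semaphorin that signals through integrins, rose from a median of 5.13 (range 4.40 to 5.33) to 6.24 (range 6.06 to 6.77), by 1.29 ± 0.16 (2.45-fold, adjusted p = 0.00146). PLAUR, the receptor of urokinase, rose by 0.71 ± 0.08 (adjusted p = 9.53e-04) without overlap, and the integrin subunit ITGA2 by 0.34 ± 0.06 (adjusted p = 0.00954). The matrix proteins TNC and THBS1 rose by 0.37 ± 0.08 and 0.26 ± 0.06 (adjusted p = 0.0298 and 0.0353), calls each lost when any 1 of 10 arrays was left out (adjusted p up to 0.0909 and 0.112). The call on SEMA7A was lost without the control arrays, and that on ITGA2 without the arrays of any 1 transfection. INHBA, a subunit of activin, differed by 0.23 ± 0.06 (adjusted p = 0.0654). The transcription factors SNAI2 and SOX9, known in basal and stem-like breast cells, rose by 0.93 ± 0.07 and 0.79 ± 0.07 (adjusted p = 6.07e-05 and 1.12e-04), both without overlap; these were named outside the rule after their values were seen.

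The array holds 173 probe sets for microRNA genes, which read the primary or precursor transcript and not the mature microRNA. Of these 3 rose (1.73%) and none fell, near the shares of all probe sets (1.51% rose and 1.01% fell). The 3 that rose lay in a pair of host loci. MIR31 and the interferon gene IFNE lie inside MIR31HG on chromosome 9, and MIR100, MIRLET7A2 and the small gene BLID lie inside MIR100HG on chromosome 11. All 5 were among the 20 largest rises. IFNE, MIR31, MIR100 and MIRLET7A2 lie on the strand of their host, so a reading of the gene and a reading of the host transcript cannot be told apart here. MIR31 went from a median of 5.16 (range 4.61 to 5.53) to 6.28 (range 6.10 to 6.68), by 1.24 ± 0.11 (adjusted p = 1.34e-04), and its host MIR31HG rose by 0.52 ± 0.08 (adjusted p = 0.00648), a call lost without the control arrays or the si-miR-20a arrays. IFNE rose by 1.79 ± 0.26 (adjusted p = 0.00316), from a median of 4.33 (range 2.36 to 4.64) to 5.86 (range 5.46 to 6.13). At 0 min its arrays had ran from 4.47 to 5.48, so part of this rise regained the level held at 0 min. The low value of 2.36 was on si-miR-671 60 min replicate 2, without which the rise was 1.51, less than that of GPAT3. The call on IFNE was lost without the control arrays (adjusted p = 0.105) and without the si-miR-20a arrays (adjusted p = 0.0585). In the other locus MIR100 rose by 1.24 ± 0.12, MIRLET7A2 by 1.18 ± 0.10 and BLID by 1.48 ± 0.09 (adjusted p = 2.04e-04, 6.58e-05 and 6.11e-06), each without overlap. Of 6 microRNA host transcripts measured MIR31HG was the 1 called. MIR17HG, the host of miR-20a, differed by 0.27 ± 0.08 (adjusted p = 0.132).

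The mature sequences of the microRNAs from these loci, and of the pair that the oligonucleotides targeted, are given from RefSeq (GRCh38.p14) with the seed, bases 2 to 8, in capitals. They lie at chr9:21512158-21512178 (minus strand) for miR-31, chr11:122152275-122152296 (minus) for miR-100, chr11:122146568-122146589 (minus) for let-7a of MIRLET7A2, chr13:91351072-91351094 (plus) for miR-20a and chr7:151238449-151238471 (plus) for miR-671.
hsa-miR-31-5p: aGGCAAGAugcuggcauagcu
hsa-miR-100-5p: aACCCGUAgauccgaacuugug
hsa-let-7a-5p: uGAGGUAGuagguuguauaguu
hsa-miR-20a-5p: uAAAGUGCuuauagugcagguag
hsa-miR-671-5p: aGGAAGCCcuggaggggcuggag
No seed is shared among these 5. The mature let-7a is the same from MIRLET7A1 on chromosome 9 and MIRLET7A3 on chromosome 22, and the arrays do not tell how much mature microRNA any of these loci gave.

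Few genes of other programmes passed the test, which 2.52% of all probe sets passed in either direction. Counts of 0 or 1 in lists of this size are near that share and do not set a list apart. None of 13 cholesterol synthesis genes, 20 mitosis genes, 9 heat shock genes or 10 genes in constant use passed the limma test in either direction. Before adjustment, 2519 of 19460 probe sets had a limma p under 0.05. All 20 mitosis genes had a difference below 0, from -0.45 to -0.01 with a median of -0.16, and 4 were called lower at 120 than at 0 min. Of 27 ribosome biogenesis genes LYAR rose by 0.35 ± 0.07 (adjusted p = 0.0277; up to 0.087 when 1 of 7 arrays was left out), with a list median of 0.13. Of 25 genes of the G1 to S transition and DNA replication ORC1, a subunit of the origin recognition complex, fell by 0.50 ± 0.08 (adjusted p = 0.00624), a call lost without the arrays of any 1 transfection. Stress genes of the unfolded protein and amino acid response split, with CHAC1, TRIB3, STC2 and XBP1 higher and DDIT3 lower, of 15. CHAC1, which degrades glutathione, and TRIB3 rose by 0.68 ± 0.10 and 0.54 ± 0.09 (adjusted p = 0.00493 and 0.00879), calls lost without the si-miR-20a arrays or the si-miR-671 arrays. The call on TRIB3 was also lost without the control arrays (adjusted p = 0.228). The calls on XBP1 and DDIT3 were lost when any 1 of 10 and 8 arrays was left out (adjusted p up to 0.0925 and 0.0765), and that on STC2 without control 60 min replicate 1 or si-miR-20a 60 min replicate 1 (adjusted p up to 0.0541). STC2 also lost its call without the control arrays (adjusted p = 0.236) or the si-miR-20a arrays. Of 12 TGF-beta feedback genes PMEPA1 and SMURF1 rose, PMEPA1 by 0.62 ± 0.09 (adjusted p = 0.00243; lost without the control arrays or the si-miR-20a arrays), and TGIF1 fell, with the calls on SMURF1 and TGIF1 lost when any 1 of 6 and 10 arrays was left out (adjusted p up to 0.0612 and 0.102). Of 16 SRF and YAP targets outside the early lists FHL2 rose by 0.32 ± 0.07 (adjusted p = 0.0407; up to 0.124 when 1 of 10 arrays was left out). SESN1 was the 1 gene called of 14 p53 targets and IRF1 the 1 called of 14 interferon response genes, both lower. Of 12 clock genes BMAL1 rose by 0.57 ± 0.08 (adjusted p = 0.00201; lost without the si-miR-20a arrays) and CRY1 by 0.45 ± 0.09 (adjusted p = 0.0237; up to 0.0688 when 1 of 8 arrays was left out). Of 13 hypoxia-responsive genes ANGPTL4 rose by 0.93 ± 0.09 while ADM and KDM3A fell, ADM by 0.96 ± 0.10 (adjusted p = 2.56e-04 and 4.54e-04), and the call on KDM3A was lost when any 1 of 10 arrays was left out (adjusted p up to 0.13).

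Among cell type markers 1 of 33 measured passed the test: GATA3, a luminal factor, fell by 0.45 ± 0.08 (adjusted p = 0.0136) with overlapping arrays, a call lost without the control arrays or the si-miR-671 arrays. The mean over the 9 luminal markers ran from 7.70 to 7.84 on the 60 min arrays and from 7.68 to 7.87 on the 120 min arrays.

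Genes that fell had a shorter median span than genes that rose. Over protein-coding genes of RefSeq (GRCh38.p14), the median span from the first to the last base was 8.75 kb for the falls of at least 1.5-fold and 34.3 kb for the rises, against 27.3 kb for all genes tested. A span under 10 kb was found for 55% of the falls, 24.6% of the rises and 25.1% of all. The early genes were shorter again, with a median of 5.82 kb, and 75.9% under 10 kb. Spans are a description without a test.

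Whether the change from 60 to 120 min itself differed between the 3 transfections was tested in limma through a moderated F of the interaction terms. It was called for 2 of 19460 probe sets (0.0103%), CYP24A1 and GPLD1, and 1873 had an unadjusted p under 0.05 (9.62%). CYP24A1, the enzyme that breaks down active vitamin D, differed by -0.09 in control, 2.26 in si-miR-20a and -0.65 in si-miR-671 (SE 0.13 each, n = 2 arrays per group, adjusted p = 0.00398). With si-miR-20a its arrays stood at 5.02 and 5.25 at 60 min and at 7.33 and 7.48 at 120 min, and with si-miR-671 at 5.37 and 5.48 and then at 4.75 and 4.80. GPLD1, a phospholipase that cleaves lipid anchors, differed by -0.38, -1.04 and 1.06 in the same order (SE 0.10 each, adjusted p = 0.00398). The call was lost without si-miR-671 60 min replicate 2 and in the fit over all 24 arrays. At 30 min, outside this SE, the 2 replicates of GPLD1 read 6.98 and 8.34 with si-miR-20a, 7.01 and 7.75 with si-miR-671 and 7.87 and 7.81 in control. EGR3 came closest after these among the early genes, with -2.05, -0.76 and -0.51 (SE 0.12 each, adjusted p = 0.0872), and its difference between transfections did not pass.

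**Figure D5:**
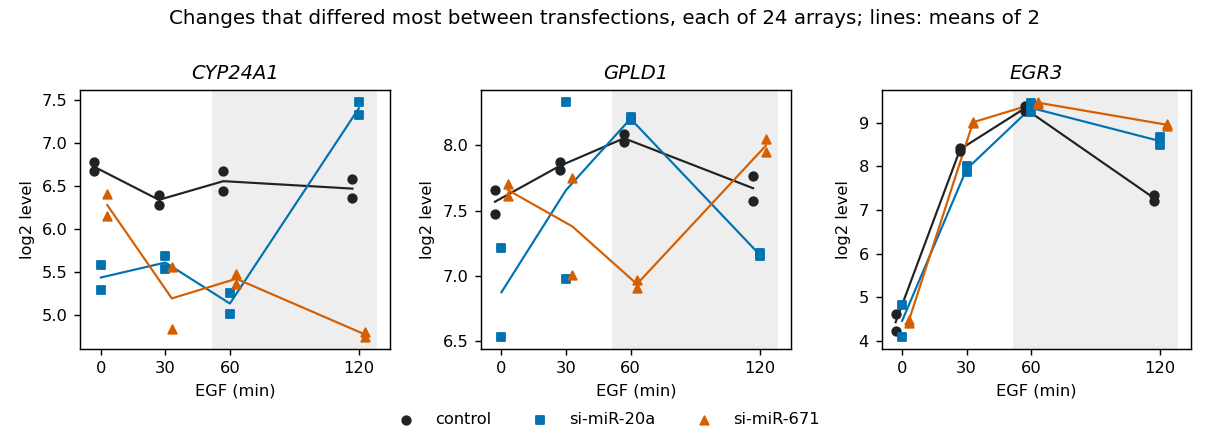
Level (deposited log2 value, vertical axis) against minutes of EGF for CYP24A1, GPLD1 and EGR3 on each of the 24 arrays, with a line through the mean of the 2 arrays of each transfection. Between 60 and 120 min CYP24A1 climbs by 2.26 with si-miR-20a, GPLD1 climbs by 1.06 with si-miR-671 and drops in the other transfections, and EGR3 drops most in control.

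Over the 156 genes that changed at least 1.5-fold, none passed the test of a difference between transfections. They were called in a fit where such a difference counts as error, so genes that have one were less likely to be among them. With n = 2 arrays per group as well, this count cannot show that the transfections changed alike. The median size of the change was 0.92 in control, 0.86 with si-miR-20a and 0.70 with si-miR-671, and it was smallest with si-miR-671 for 109 of the 156. The 2 replicates of si-miR-671 at 120 min differed more than those of any other group; without replicate 2 the median was 0.70 and the change was smallest with si-miR-671 for 105 of the 156 genes. The sizes are a description, because these genes were chosen on the same arrays. Tested in each transfection alone, 134 probe sets changed in control (0.689%), 150 with si-miR-20a (0.771%) and 50 with si-miR-671 (0.257%), counts that do not by themselves show a difference between transfections.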

How the data were processed

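RNA of MCF10A cells was measured on 24 Affymetrix Human Gene 1.0 ST arrays, 12 of them in this comparison. The authors deposited log2 values per probe set; Affymetrix Expression Console is named in the submitters' processing notes, and its summarisation and normalization settings are not given in the sources used here. Array medians ran from 6.56 to 6.57, and the number of arrays limits the precision.

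The test took the 19460 of 33297 probe sets that carry a single gene symbol (1754 carry several, 12083 none). They stand for 18417 genes, and a gene with several was read by the brightest over 24 arrays. limma 3.58.1 in R 4.3.3 fitted transfection and time by lmFit and eBayes, with Benjamini-Hochberg adjustment and a call at an adjusted p under 0.05. The interaction used 1 mean per group. Replicate numbers were not used to pair the samples, because the labels do not say whether they do. Simulated data with known changes were used to test the scripts. Sequences, gene spans and motifs were read from RefSeq tables (GRCh38.p14) with Python 3.11.15.

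The genes and lists were chosen with earlier results of these data known. Named were the 20 largest rises and 20 largest falls in the same direction in 3 transfections, members of 33 lists (up to 8 called each), early genes and the smallest p of the interaction. Alternatives covered the fit, prior, normalization, filter, probe sets, transfections and single arrays. An oligonucleotide against miR-212, which the protocol also mentions, is not analysed here.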

Additional observations from a re-analysis of the deposited data

Results flagged for a closer look

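The change from 60 to 120 min differed between transfections for CYP24A1 and GPLD1, by the moderated F of limma's interaction, each with an adjusted p of 0.00398 (n = 2 arrays per group). For CYP24A1 the difference was -0.09 in control, 2.26 with si-miR-20a and -0.65 with si-miR-671 (SE 0.13 each), and the call held in 19 of 19 settings tried, with adjusted p up to 0.0417. At 0 min CYP24A1 read 6.67 and 6.77 in control, 5.30 and 5.58 with si-miR-20a and 6.15 and 6.40 with si-miR-671, so the transfections also stood apart before EGF. For GPLD1 the difference was -0.38 in control, -1.04 with si-miR-20a and 1.06 with si-miR-671 (SE 0.10 each), and the call held in 18 of 20 settings. GPLD1 was lost in the fit over all 24 arrays (adjusted p = 0.206) and without si-miR-671 60 min replicate 2. Its replicates lay far apart in some groups outside the comparison, at 6.98 and 8.34 with si-miR-20a at 30 min, though not in control at 30 min (7.87 and 7.81). No cause was tested for either gene.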

How the results depend on the processing

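The 294 rises and 197 falls became 509 and 448 in the fit over all 24 arrays, 45 and 55 without the control arrays and 106 and 100 without the si-miR-20a arrays, and the rises became 128 without the si-miR-671 arrays. Leaving out 1 array at a time gave 186 to 294 rises, 130 to 265 falls and 20 to 24 early genes that fell. With a change of at least 1.5-fold required, the 75 rises and 87 falls became 39 and 54 without the control arrays, and 64 to 83 and 80 to 96 when 1 array was left out. The 2 genes of the interaction became 4 with an intensity trend and 1 to 6 when 1 array was left out. With the replicate number as a block 241 rose and 160 fell; with a replicate block within each transfection 158 rose and 122 fell. The numbers were not taken to pair the samples, and the labels do not say whether they do. Within a transfection, replicate differences at 60 and 120 min correlated with r of -0.19 in control, 0.14 with si-miR-671 and 0.19 with si-miR-20a. Over all 15 pairs of groups, most of them across transfections, this correlation ran from -0.57 to 0.19. The SPRR2A difference, uncalled, turned to 0.0225 without the control arrays, 0.0707 without the si-miR-20a arrays and ran from -0.0816 to 0.103 when 1 array was left out, and that of NR4A1 turned to 0.0068 without the si-miR-20a arrays. Of 111 named genes called, 0 reversed in any setting. Without the control, si-miR-20a or si-miR-671 arrays 50, 37 and 27 lost their call, with a replicate block 13 and with one within transfection 25, and 22 lost it when some 1 array was left out. The causes were not tested. Signal above background is not given by the deposited values, so low levels such as IFNE at 60 min are uncertain.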
